A study of Mus musculus with 12 samples.

Results

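Imprinted growth regulators are described here in the mesenchyme of the developing mouse palate: Igf2, H19, Dlk1, Meg3, Cdkn1c, Peg3, Mest, Grb10, Plagl1 and Igf2r. These 10 genes were taken by symbol from the 53392 genes in the tables, and all 10 were measured and passed the filter on low counts in every comparison. The study sequenced polyadenylated RNA from 12 libraries in 4 groups of 3, which its design text calls biological replicates. All embryos had the 129S4 strain background, and the ectoderm over each tissue was digested away with trypsin before RNA was isolated. Palatal shelf mesenchyme was taken at E13.5 from Pdgfra+/+ (wild-type) and PdgfraPI3K/PI3K embryos (called PI3K here), the latter carrying on both alleles a form of the receptor that cannot bind phosphatidylinositol 3-kinase. Maxillary process mesenchyme was taken at E11.5 from Srsf3fl/fl;Wnt1-Cre+/+ embryos (control) and Srsf3fl/fl;Wnt1-Cre+/Tg embryos (cKO), so both maxillary groups carried the floxed Srsf3 alleles on both chromosomes. Wnt1-Cre acts in the neural crest lineage, so cells of other origin in the maxillary process, such as endothelium, keep Srsf3, which encodes a splicing factor of the SR family.

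An imprinted gene is expressed mainly or only from the copy inherited from the mother or from the father. A control region near it carries DNA methylation set in the germ line of either the mother or the father. The methylated copy need not be the expressed one. Many such genes set the growth of the embryo and placenta: paternally expressed genes such as Igf2, Dlk1, Peg3, Mest and Plagl1 are mostly known to promote growth or to act in mesoderm and mesenchyme, while maternally expressed genes such as H19, Cdkn1c, Igf2r and Grb10 mostly restrain it. Several sit as neighbours under shared control, so that one gene of a pair is expressed from each parental copy. The counts sum both parental copies, so allele use was not measured here.

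On GRCm38 (GENCODE M21), Igf2 lies at chr7:142650766-142666816 and the noncoding RNA H19 at chr7:142575529-142578143, both on the minus strand and 72.6 kb apart. Dlk1 (chr12:109452823-109463336) and the noncoding RNA Meg3 (chr12:109541001-109571726) lie 77.7 kb apart on the plus strand. Cdkn1c lies at chr7:143458339-143461050 (minus), Peg3 at chr7:6703892-6730431 (minus), Mest at chr6:30723547-30748465 (plus) and Grb10 at chr11:11930508-12038683 (minus). Plagl1 spans chr10:13060504-13131694 (plus) and Igf2r chr17:12682406-12769664 (minus). Igf2r is overlapped on the opposite strand by the noncoding RNA Airn, Igf2 by Igf2os, and Mest at its end by Copg2. Whether strand was used in counting is not given in the sources used here, so reads of such partners may be shared.

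Mature microRNAs were not measured, but the transcripts counted here are also hosts of microRNAs, and the sequences show what a host transcript carries. From RefSeq (GRCm38.p6), with the seed (bases 2 to 8) in capitals, 5′ to 3′, miR-675 lies in an exon of H19, miR-483 in an intron of Igf2, miR-335 in an intron of Mest and miR-770 in an exon of 1 of 11 annotated Meg3 transcripts. No seed in this group is shared by 2 of them.
mmu-miR-675-5p: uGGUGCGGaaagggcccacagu
mmu-miR-675-3p: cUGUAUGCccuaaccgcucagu
mmu-miR-483-5p: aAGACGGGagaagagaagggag
mmu-miR-335-5p: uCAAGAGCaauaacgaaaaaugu
mmu-miR-770-5p: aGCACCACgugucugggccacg

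Start sites are shown for Peg3 and Mest because the neighbour Usp29 and the transcripts of Mest are described below. The use of a start site was not measured. RefSeq holds 15 windows, from 250 bases before to 50 after a start, for 8 of the 10 genes, H19 and Cdkn1c having no entry. The Peg3 window at chr7:6730370-6730669 (minus strand) also covers the 146 bases between Peg3 and the start of its oppositely oriented neighbour Usp29. It is shown with the motif GGGGCCCC in capitals, a palindrome of the type bound by Plagl1, which 352 of 32817 windows (1.07%) and 1 of the 15 windows of these genes hold.
Peg3: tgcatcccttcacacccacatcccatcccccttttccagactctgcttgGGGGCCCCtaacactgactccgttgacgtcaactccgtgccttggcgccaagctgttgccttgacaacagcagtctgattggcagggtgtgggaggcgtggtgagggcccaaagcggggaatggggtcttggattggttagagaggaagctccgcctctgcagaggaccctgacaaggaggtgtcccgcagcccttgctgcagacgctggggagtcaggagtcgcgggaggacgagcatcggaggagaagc
Mest has an upstream start, with the window chr6:30733256-30733555 (plus strand, 8 CpG, more than in 51.4% of all windows). A second start lies 4.54 kb downstream at chr6:30737800-30738099 (plus strand, 17 CpG, more than in 68.6%). The median over all windows was 7 CpG. The downstream window is shown with the 2 matches to TGCCGC in capitals, read on either strand (GCGGCA on the opposite one), the core of the motif bound by the imprint-maintaining factor Zfp57.
Mest upstream: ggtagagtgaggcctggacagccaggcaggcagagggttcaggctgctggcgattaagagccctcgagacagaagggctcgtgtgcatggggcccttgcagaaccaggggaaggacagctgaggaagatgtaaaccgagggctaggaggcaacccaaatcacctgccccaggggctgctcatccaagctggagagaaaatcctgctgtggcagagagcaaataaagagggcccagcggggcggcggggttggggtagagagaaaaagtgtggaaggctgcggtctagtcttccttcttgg
Mest downstream: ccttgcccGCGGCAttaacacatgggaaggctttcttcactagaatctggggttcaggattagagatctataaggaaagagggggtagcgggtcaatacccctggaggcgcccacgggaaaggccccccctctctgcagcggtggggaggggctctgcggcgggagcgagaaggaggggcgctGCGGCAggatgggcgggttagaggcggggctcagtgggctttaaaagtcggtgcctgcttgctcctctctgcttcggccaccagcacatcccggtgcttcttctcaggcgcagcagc
TGCCGC was found on either strand in 6 of the 15 windows, in 5 of these genes, and in 3809 of the 32817 windows (11.6%). The 6 include the Mest windows chr6:30737800-30738099 and chr6:30737803-30738102, which overlap almost fully and hold the same 2 matches. Overlapping windows were counted separately in both shares. A match is a string of letters and no evidence of binding. CpG was densest in the windows of Grb10, with 45 (more than in 98.1% of all windows), Igf2r with 34 (92.3%) and Plagl1 with 26 (83.1%).

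Depth was 30.5 to 37.4 M (1e+06) estimated counts per palatal library and 15.9 to 27.9 M per maxillary library, and all 10 genes were far above the counting floor. As a check of the labels, Srsf3 was at 621, 595 and 562 normalised CPM in the control and 478, 694 and 640 in the cKO libraries (CPM being counts per 1e+06, scaled by library totals and TMM factors over the 12 libraries), a log2 fold change of 0.03 (adjusted p = 0.954, edgeR quasi-likelihood test with Benjamini-Hochberg adjustment). Gene totals did not show the deletion, so these are called the libraries labelled cKO. The facial mesenchyme markers fixed for the tissue check (9 genes, Pdgfra, Prrx1, Twist1 and Msx1 among them) were present in all libraries, with a summed level of 1772 to 3422 normalised CPM. Other cells were also present, as red blood cell markers at 792 to 10786 and ectoderm markers at 336 to 806 in the palatal and 2.08 to 20.0 in the maxillary libraries.

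Compared per transcript length, in TPM (transcripts per 1e+06), H19 and Igf2 were the most abundant of the 10 in the palatal shelf, and Mest was on average the most abundant in the maxillary process. H19 stood at 4953, 3755 and 4466 TPM in the wild-type palatal libraries, where it ranked between position 11 and 16 among all genes, and Igf2 at 2529, 1672 and 2116 TPM. In the control maxillary libraries Mest stood at 2216, 1927 and 1434 TPM, and H19 at 941, 1118 and 1550 TPM, so Mest was above H19 in 2 of the 3 libraries and below it in the other. Igf2r was the lowest of the 10 in every control library, at 31.3, 26.0 and 45.2 TPM, with Plagl1 next at 34.5, 43.7 and 50.5 TPM, and the ranges of these neighbours overlapped. The 10 genes together made up 1.11% ± 0.174 (SD, n = 3) of all TPM in the wild-type palatal shelf, 1.26% ± 0.125 in the PI3K palatal shelf, 0.501% ± 0.00415 in the control and 0.606% ± 0.131 in the cKO maxillary process.

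**Figure D1:**
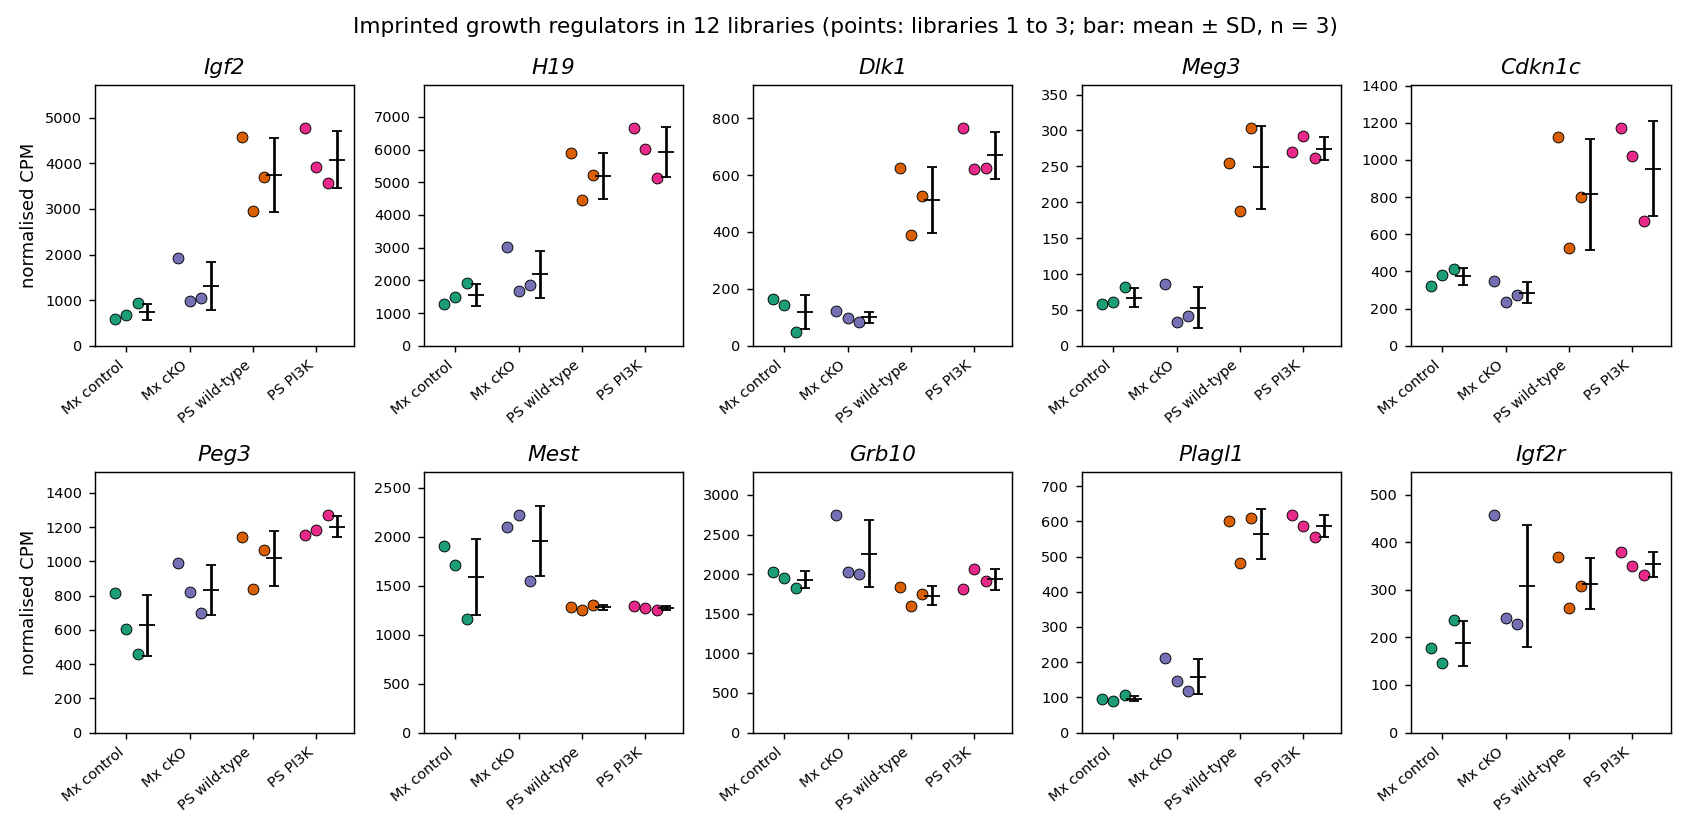
Normalised CPM (vertical axis, from 0, one scale per gene) of the 10 imprinted genes in the 4 groups, where Mx is the maxillary process at E11.5 and PS the palatal shelf at E13.5; points are libraries 1 to 3 from left to right and bars the mean ± SD (n = 3). Igf2, H19, Dlk1, Meg3, Cdkn1c and Plagl1 sit higher in every palatal than in every maxillary library, Mest and Grb10 do not, and cKO library 1 is the highest maxillary library for Igf2, H19, Meg3, Peg3, Grb10, Plagl1 and Igf2r.

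Of the 3 comparisons made, the one between the E13.5 palatal shelf and the E11.5 maxillary process, in their wild-type and control groups, had the most differences. Of the 10 genes, 8 rose and 0 fell in the palatal shelf at a false discovery rate (FDR) of 0.05, with Plagl1, Igf2, Dlk1, Meg3 and H19 more than 3-fold higher. Over all genes tested, 7965 of 15752 (50.6%) passed, 27.1% higher and 23.4% lower, 57.2% had an unadjusted p under 0.05 and 62% had groups that did not overlap, so a call by itself is common here. Of the called genes 53.7% were higher, and 70.9% in limma on log2(TPM + 1). The median log2 fold change of the 10 genes was 1.43, against 0.03 over all genes. Tissue, stage, the Pdgfra and Srsf3 allele backgrounds and the lane code in the labels change together in this comparison and cannot be told apart. In these bulk libraries, a larger share of expressing cells and more RNA per cell cannot be told apart either.

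For the ligand Igf2, a growth factor that signals through the type 1 IGF receptor, the wild-type palatal libraries held 4588, 2962 and 3705 normalised CPM and the control maxillary libraries 593, 677 and 939. Every palatal library was far above every maxillary one. The fold was 5.09 (log2 2.35 ± 0.23 SE, adjusted p = 0.000321, edgeR quasi-likelihood test with Benjamini-Hochberg adjustment, as for every adjusted p of a level in this report). H19, the noncoding neighbour that shares its enhancers with Igf2, held 5887, 4456 and 5226 normalised CPM against 1265, 1490 and 1926. Its groups did not overlap either, and it was 3.32-fold higher (log2 1.73 ± 0.19, adjusted p = 0.000490). Igf2r, which encodes the receptor that takes up IGF2 and delivers it to the lysosome, held 369, 262 and 308 normalised CPM against 178, 146 and 238. The gap between its groups was narrow, and the rise was 1.67-fold (log2 0.74 ± 0.19, adjusted p = 0.0158). That call was lost without wild-type library 1 (adjusted p = 0.0513), control library 1 (0.0537) or control library 2 (0.0644), over a range of 0.000645 to 0.595 across all alternatives.

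Grb10, an adaptor that binds insulin and IGF receptors and damps their signal, was among the steadiest of the 10. It held 1839, 1594 and 1752 normalised CPM in the wild-type palatal and 2030, 1945 and 1819 in the control maxillary libraries. These ranges overlapped, and the log2 difference of -0.17 had a 95% interval of -0.44 to 0.10 (adjusted p = 0.266).

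Dlk1, a membrane protein related to Notch ligands that holds progenitors of fat and other mesenchyme back from differentiating, held 623, 391 and 526 normalised CPM in the palatal against 164, 142 and 49.5 in the maxillary libraries. Control library 3 was the low one, well under the other two. The groups did not overlap, and Dlk1 was 4.31-fold higher (log2 2.11 ± 0.42, adjusted p = 0.00501). Meg3, the maternally expressed noncoding RNA of the same locus, held 255, 188 and 303 against 58.6, 60.8 and 82.4 normalised CPM, a 3.68-fold rise (log2 1.88 ± 0.20, adjusted p = 0.000429). Downstream noncoding transcripts of the locus, looked up after the values of Meg3 were seen, were also higher: Rian by 1.60 on the log2 scale (adjusted p = 0.000428) and Mirg by 1.21 (adjusted p = 0.000804).

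Plagl1, a zinc finger transcription factor that binds GC-rich sites and is known to regulate other imprinted genes, held 602, 481 and 610 normalised CPM in the palatal libraries and 94.2, 89.5 and 105 in the maxillary ones. This was the largest fold among the 10, at 5.83 (log2 2.54 ± 0.13, adjusted p = 2.66e-05), with no overlap and an SD of 8.13 normalised CPM in the maxillary group. Cdkn1c, the cyclin-dependent kinase inhibitor p57, held 1122, 524 and 799 against 324, 380 and 415 normalised CPM. Its palatal libraries were spread more than its maxillary ones, the groups did not overlap, and it was 2.18-fold higher (log2 1.13 ± 0.26, adjusted p = 0.00927).

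Peg3, a large zinc finger protein of the paternally expressed copy, held 1145, 839 and 1067 normalised CPM in the palatal against 816, 603 and 458 in the maxillary libraries. The lowest palatal library was barely above the highest maxillary one, and the rise was 1.62-fold (log2 0.69 ± 0.23, adjusted p = 0.0349). It did not pass without wild-type library 1 (adjusted p = 0.0860), wild-type library 3 (0.0858), control library 2 (0.117) or control library 3 (0.0662), over a range of 0.00381 to 0.117 across all alternatives. Mest, a hydrolase-like protein long used as a marker of embryonic mesoderm, held 1282, 1251 and 1307 against 1905, 1711 and 1161 normalised CPM. Control library 3 was below all palatal libraries while the other two were above them, and the log2 difference of -0.32 (95% interval -0.76 to 0.11) did not pass (adjusted p = 0.185). Without control library 3 it was -0.54 and passed (adjusted p = 0.00313), as it did in limma on log2(TPM + 1) at -0.56 (adjusted p = 0.0395), with a range of 0.00313 to 0.422 across all alternatives.

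The other 6 libraries of these tissues, PI3K palatal shelf and maxillary libraries labelled cKO, gave the same comparison in samples not used above, although each carries its own mutation. In that comparison, 8 of the 10 genes passed, among 6900 genes in all. Mest was lower by 0.65 on the log2 scale and passed (adjusted p = 0.00810), while Igf2r was higher by 0.17 and did not pass (adjusted p = 0.595). The remaining 7 genes that had risen in the wild-type and control comparison rose here too, and Grb10 passed in neither.

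**Figure D2:**
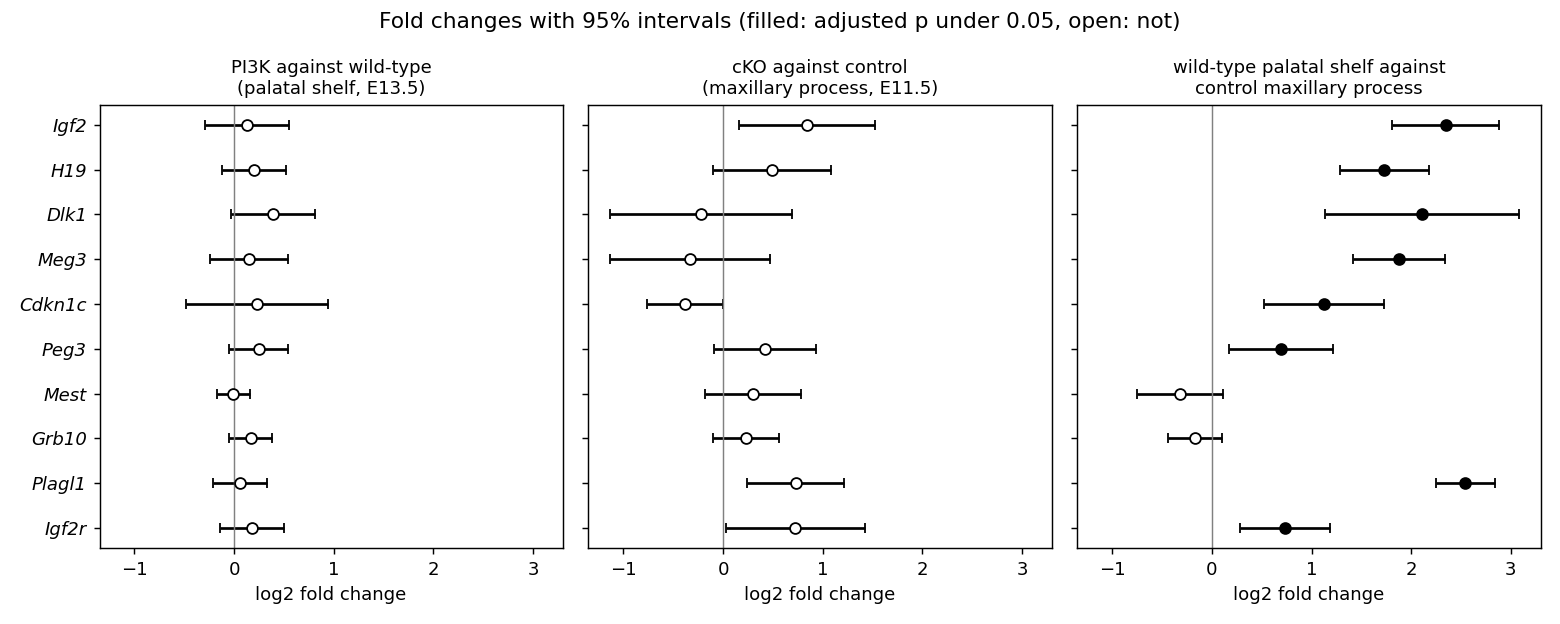
Log2 fold changes (horizontal axis) of the 10 genes with their 95% intervals in the 3 comparisons, from edgeR fits on 6 libraries each; filled points have an adjusted p under 0.05. Filled points occur in the comparison of palatal shelf with maxillary process alone, where 8 genes are shifted to the right and Mest and Grb10 are not.

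Other genes of the same pathways were read from lists. Of 46 other imprinted genes tested between palatal shelf and maxillary process, 19 rose and 6 fell, 54.3% in all against 50.6% of all genes, with a median log2 fold change of 0.27. Some of them passed the filter on low counts through the palatal or the maxillary group alone, so a difference was built into their being tested. Examples are Klf14 (9.33 palatal against 0.311 maxillary normalised CPM) among the rises and Tspan32 (0.286 against 2.62) among the falls. The same filter was used for the share over all genes. Among those with a mean of at least 5 CPM over both groups, the largest rises were in Dio3, Dcn and Zim1. Dio3, the thyroid hormone-inactivating deiodinase at the far end of the Dlk1 locus, was at 13.3 ± 9.47 against 0.284 ± 0.167 normalised CPM (SD, n = 3). It also passed the filter on low counts through the palatal group alone, so no fold or adjusted p is given. Dcn, a matrix proteoglycan, rose 26.5-fold (64.0 ± 19.8 against 2.24 ± 3.02 normalised CPM, adjusted p = 0.00261) and Zim1, next to Peg3, 11.7-fold (adjusted p = 0.000557). The largest falls under the same limit were in Nnat (401 ± 173 against 799 ± 63.0 normalised CPM, SD, n = 3, adjusted p = 0.0172), Peg12 (log2 -0.80, adjusted p = 0.00152) and Snrpn (-0.61, adjusted p = 0.0217).

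In the list of the IGF pathway, 6 of 13 genes rose and 4 fell (76.9% in all, against 50.6% of all genes, 27.1% higher and 23.4% lower). The binding proteins Igfbp5 (7.94-fold, adjusted p = 4.09e-05) and Igfbp3 (6.10-fold, adjusted p = 4.25e-06), which hold IGFs outside the cell, and the receptor substrate Irs1 (1.97-fold, adjusted p = 0.00616) had the largest rises. Those with the largest falls were Igf2bp1 (log2 -1.90, adjusted p = 0.000261) and Igf2bp3 (-1.11, adjusted p = 0.00188), which bind Igf2 mRNA, and the ligand Igf1 (-0.84, adjusted p = 0.00963). Igf1 was thus lower in the tissue in which Igf2 was higher. Igf1r, the receptor of both ligands, was at 297 ± 39.6 against 306 ± 47.6 normalised CPM (SD, n = 3 each) and did not pass (adjusted p = 0.780).

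Among 10 cell cycle genes tested beside Cdkn1c, 4 rose and 3 fell (70% in all, against 50.6% of all genes). Cdkn1a, the inhibitor p21 of the same family, rose 9.46-fold (21.5 ± 13.3 against 2.21 ± 1.57 normalised CPM, adjusted p = 0.00415), and Cdk6 (1.88-fold, adjusted p = 0.00276) and Cdkn2c (1.80-fold, adjusted p = 0.0384) rose less. Ccnd1 (log2 -0.91, adjusted p = 0.00776), Cdk4 (-0.75, adjusted p = 0.00277) and Cdk2 (-0.45, adjusted p = 0.00911), which drive entry into the cycle, fell. In a list of 13 genes that set, keep, read or remove DNA methylation, among them methyltransferases, Tet oxidases, Zfp57 and Ctcf, 7 fell and 0 rose. That is 53.8%, near the 50.6% called among all genes, of which 23.4% were lower. The de novo methyltransferase Dnmt3b fell to 0.395 of its maxillary level (adjusted p = 0.00188), Uhrf1, which brings the maintenance methyltransferase to replicating DNA, to 0.450 (adjusted p = 0.00115), and the chromatin remodeller Hells to 0.465 (adjusted p = 0.000431).

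Marker sums of other cells also differed between these tissues, by ectoderm (540 to 734 against 2.08 to 9.47 normalised CPM, 8 of 8 markers higher), macrophage (40.5 to 109 against 18.9 to 22.3, 7 of 8 higher), red blood cell (803 to 1810 against 3751 to 6289, 5 of 8 lower and 2 higher), endothelial (393 to 440 against 324 to 334, 4 of 7 higher) and neuron and glia markers (33.4 to 46.3 against 64.0 to 184, 4 of 6 tested lower and 1 higher), counting markers past the FDR threshold. Mesenchyme markers summed to 2362 to 2798 against 3071 to 3422 normalised CPM, with 5 of 9 lower and 3 higher. None of these markers was at 0 in all 3 libraries of a group. Krt14 and Grhl3 (ectoderm) and Aif1 (macrophage) averaged 0.182, 0.188 and 0.252 normalised CPM in the control maxillary libraries. They passed the filter on low counts through the palatal group alone, so a difference was built into their being tested. The part of these cells in the levels of the imprinted genes was not tested.

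Loss of PI3K binding by Pdgfra was compared with wild-type in the palatal shelf, which the series' title places in a study of signalling through this receptor. No gene passed at all: 0 of 16525 (0%) at FDR 0.05 in edgeR, 354 (2.14%) at an unadjusted p under 0.05, and 4 by DESeq2, none of them an imprinted gene of this group. For the 10 genes, 0 passed and 0 had an unadjusted p under 0.05, 9 were higher in the PI3K libraries, and the median log2 fold change was 0.17 against -0.01 over all genes. The Dlk1 values were 764, 621 and 624 normalised CPM in the PI3K against 623, 391 and 526 in the wild-type libraries. PI3K library 2 was just under wild-type library 1, so the groups overlapped, and the log2 difference of 0.39 had a 95% interval of -0.04 to 0.81 (unadjusted p = 0.0673 in edgeR, across-gene fit). Peg3 held 1155, 1185 and 1269 against 1145, 839 and 1067 normalised CPM and was the only one of the 10 whose groups did not overlap, which 1040 of all genes tested (6.29%) also showed. Its log2 difference was 0.25 (95% interval -0.05 to 0.54). Mest was nearly level, at 1294, 1269 and 1250 against 1282, 1251 and 1307 normalised CPM, with a log2 difference of -0.01 and an interval of -0.17 to 0.16.

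The remaining 7 genes had log2 differences from 0.06 (Plagl1) to 0.23 (Cdkn1c), and the interval of Cdkn1c was the widest, from -0.49 to 0.94. Wild-type library 2 lay below its group mean for all 10 genes. Without it, 5 of the 10 were higher in the PI3K libraries and the median was 0.03. Skeletal muscle markers summed to 64.8, 3.01 and 4.44 normalised CPM in the wild-type and 302, 37.5 and 157 in the PI3K libraries, and cartilage and bone markers to 2763, 605 and 794 against 1769, 1023 and 1280. Their part in these values was not tested. In the lists, 0 of 48 other imprinted genes, 0 of 13 IGF pathway genes, 0 of 11 cell cycle genes and 0 of 13 imprint maintenance genes passed.

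In the maxillary process, the libraries labelled Srsf3 cKO were compared with control. Of 14254 genes, 12 (0.0842%) passed at FDR 0.05, 8 higher (0.0561%) and 4 lower (0.0281%), and 0 of the 10 imprinted genes did. At an unadjusted p under 0.05 there were 4 of the 10 (1746 of all genes, 12.2%), Igf2, Plagl1 and Igf2r higher and Cdkn1c lower in the libraries labelled cKO. The median log2 fold change of the 10 was 0.36, against 0.00 over all genes, and 7 of them were higher. The alternative tool DESeq2 passed Igf2 and Plagl1 among 384 genes.

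Igf2 held 1929, 982 and 1042 normalised CPM in the libraries labelled cKO against 593, 677 and 939 in the control. The groups did not overlap, as for 2592 of all genes (18.2%), but cKO library 1 stood far above the other two. The log2 difference was 0.84 ± 0.29 (adjusted p = 0.351 in edgeR, 0.0337 by DESeq2, range 0.0337 to 0.730 over the alternatives), and 0.46 without cKO library 1. Plagl1 held 213, 148 and 117 against 94.2, 89.5 and 105 normalised CPM. Its groups did not overlap, with a log2 difference of 0.73 ± 0.21 (adjusted p = 0.289 in edgeR, 0.0213 by DESeq2, range 0.0213 to 0.718), and 0.46 without cKO library 1. Igf2r held 457, 240 and 228 against 178, 146 and 238 normalised CPM. It overlapped, because control library 3 was above cKO library 3, and its log2 difference of 0.72 ± 0.30 (adjusted p = 0.400) was 0.32 without cKO library 1.

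H19 stood at 3018, 1689 and 1855 normalised CPM in the libraries labelled cKO and 1265, 1490 and 1926 in the control. It overlapped, with a log2 difference of 0.49 ± 0.25 (adjusted p = 0.487), and 0.18 without cKO library 1. Cdkn1c went the other way, at 347, 236 and 271 against 324, 380 and 415 normalised CPM. The log2 difference of -0.38 ± 0.16 did not pass (adjusted p = 0.408), and cKO library 1 was above control library 1. Dlk1 held 122, 96.2 and 84.5 against 164, 142 and 49.5 normalised CPM, a log2 difference of -0.22 that became 0.09 without control library 1. Meg3 was at 85.6, 33.1 and 41.2 against 58.6, 60.8 and 82.4 normalised CPM, with the highest and the lowest values both in the libraries labelled cKO, and a log2 difference of -0.33 ± 0.35. Without 1 library it ranged from -0.86 (without cKO library 1) to -0.08 (without cKO library 2), and was -0.15 without control library 3 and -0.17 without cKO library 3. Peg3, Mest and Grb10 had log2 differences of 0.42, 0.30 and 0.23, with overlapping groups and intervals that took in 0.

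Endothelial markers moved with this comparison, summing to 330, 334 and 324 normalised CPM in the control and 843, 488 and 430 in the libraries labelled cKO. All 7 were higher without overlap and had an unadjusted p under 0.05 in edgeR, but 0 of 7 passed the FDR threshold. Mesenchyme markers summed to 3071, 3422 and 3417 in the control against 1772, 2502 and 2642, and cartilage and bone markers to 730, 638 and 635 against 1278, 831 and 957 normalised CPM. Of 9 mesenchyme markers, 8 were lower and 1 higher. Of 6 cartilage and bone markers tested, 4 were higher and 2 lower, Runx2 (log2 -1.19) and Alpl (-0.57). In both lists 0 passed the FDR threshold. Col2a1 alone averaged 402 in the control against 729 normalised CPM. Macrophage markers were at 46.9 in cKO library 1 against 18.9 to 24.5 in the other 5 maxillary libraries. Red blood cell markers were at 10786 in cKO library 1 against 3751 to 6289 in the other 5. Library 1 was thus highest among the maxillary libraries in endothelial, cartilage and bone, macrophage and red blood cell markers and in Igf2, H19, Meg3, Peg3, Grb10, Plagl1 and Igf2r, and the part of these cells in the levels was not tested. Among the lists, 0 of 41 other imprinted, 0 of 12 IGF pathway, 0 of 10 cell cycle and 0 of 13 imprint maintenance genes passed.

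Within groups, libraries differed in the whole set at once in some cases. The genes were all above the group mean in wild-type library 1 and in cKO library 1, and all below it in wild-type library 2 and in cKO library 3, whereas the median of all genes deviated by -0.03 to 0.03 on the log2 scale in these. The median deviation of the 10 genes was 0.38 in cKO library 1, -0.19 in cKO library 2 and -0.24 in cKO library 3. In the control maxillary group the genes did not move together: library 3 was high for Igf2, H19, Meg3 and Igf2r and low for Dlk1, Peg3 and Mest.

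**Figure D3:**
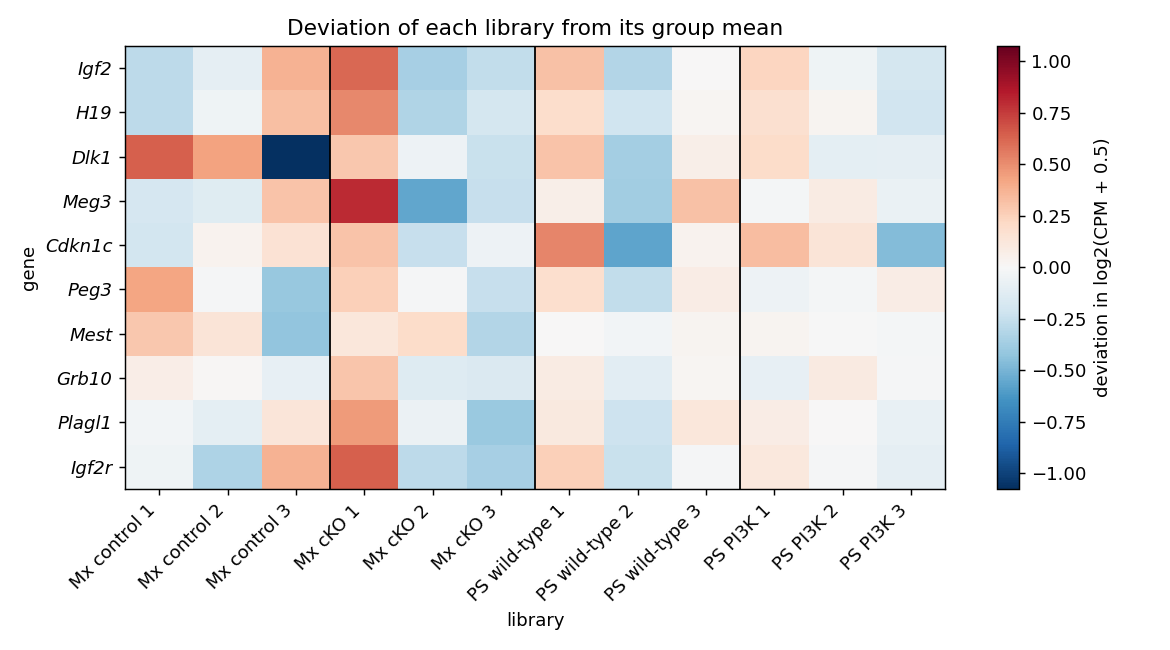
Deviation of each library (columns, 3 per group) from its group mean for the 10 genes (rows), in log2(CPM + 0.5), red above and blue below; Mx is the maxillary process and PS the palatal shelf. The column of cKO library 1 is red in all rows and that of wild-type palatal library 2 blue in all rows, while control library 3 is red for Igf2, H19, Meg3 and Igf2r and dark blue for Dlk1.

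Patterns were compared by the correlation of log2(CPM + 0.5), centred on the mean of each group, over the 12 libraries, among 10385 genes of at least 5 CPM in every group. These values are descriptions: centring leaves few independent points, libraries share depth and cell makeup, and the highest of many correlations is high by selection. Igf2 and H19 were each other's most similar gene, with a Pearson r of 0.99 and a Spearman rho of 0.98, and r of 0.97 without the 2 libraries farthest from the median of Igf2. For Igf2 the genes P3h3 and Asah1 followed at 0.98 each, the same 2 as for H19. Igf2 also went with Igf2r (r = 0.92, and 0.81 without the 2 farthest libraries), and Igf2r with Plagl1 (r = 0.90, and 0.83). The gene most like Peg3 was Usp29, whose start lies within the promoter window printed for Peg3, with r = 0.95 and rho = 0.92, and 0.90 without the 2 farthest libraries. Usp29 was far lower, at 20.9 to 33.3 normalised CPM in the palatal libraries, and between palatal shelf and maxillary process it had a log2 difference of -0.08 (95% interval -0.63 to 0.47), where Peg3 was higher by 0.69.

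Dlk1 and Meg3, neighbours like Igf2 and H19, showed no such likeness, with r of -0.01 over the 12 libraries and 0.50 without the 2 farthest, so the value rests on few libraries. Dlk1 went instead with Peg3 (r = 0.86, and 0.70) and Mest (r = 0.84, and 0.54). Its most similar gene was Jam3 (r = 0.96), and that of Meg3 was Zdhhc20 (r = 0.97). The genes most like the others were Rcn3 for Cdkn1c (r = 0.98), Pitrm1 for Mest (r = 0.96), Schip1 for Grb10 (r = 0.96), Gm2a for Plagl1 (r = 0.96) and Gmds for Igf2r (r = 0.95). Mest had an r of -0.21 with Igf2 and -0.27 with H19.

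Because Igf2 and H19 moved in step, their ratio within a library was read as a description, without a test. The Igf2 to H19 ratio of TPM was 0.511, 0.445 and 0.474 in the wild-type and 0.475, 0.431 and 0.470 in the PI3K palatal libraries, which overlapped. It was 0.356, 0.352 and 0.341 in the control maxillary libraries, below every other library, and 0.446, 0.406 and 0.404 in the libraries labelled cKO. Leaving out any 1 library kept the log2 difference between cKO and control at 0.21 to 0.28, and that between wild-type palatal shelf and control at 0.39 to 0.49. The Dlk1 to Meg3 ratio was less steady: 2.55, 2.14 and 1.82 in the wild-type palatal, 2.36 to 2.94 in the PI3K palatal, 3.29, 2.44 and 0.626 in the control and 1.68, 3.26 and 2.41 in the cKO maxillary libraries. Control library 3 was the lowest of all, and the maxillary groups overlapped.

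The ratio of estimated count to TPM was read on the log2 scale relative to the median gene. It is proportional to the mean effective length of a gene's transcripts in a library, so it can move with the mix of transcripts. What moved it was not tested. Mest differed between tissues by this measure. Its total level did not pass in the main fit on counts, but passed as lower in the palatal shelf in 3 of 16 alternatives, limma on log2(TPM + 1) among them. In TPM, Mest held 1170 to 1355 in the wild-type palatal and 1434 to 2216 in the control maxillary libraries. Its effective length was 0.799, 0.763 and 0.715 of the median gene's in the wild-type palatal libraries, 0.728, 0.736 and 0.744 in the PI3K palatal, 0.547, 0.568 and 0.558 in the control and 0.554, 0.583 and 0.539 in the cKO maxillary libraries. Every palatal library was above every maxillary one. Between wild-type palatal shelf and control maxillary process the log2 difference was 0.44 (95% interval 0.33 to 0.56, adjusted p = 0.0234, limma with Benjamini-Hochberg adjustment), where 1008 of 11093 genes tested (9.09%) passed. It was 0.40 in the PI3K and cKO libraries (adjusted p = 0.00572), and the adjusted p ranged from 0.0185 to 0.0957 when 1 library was left out, passing without wild-type library 3 and in no other such fit. The count of genes past the threshold fell with it, to 0 without control library 2 and 587 without wild-type library 3.

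The annotation gives Mest 5 transcripts that begin upstream (341 to 2383 bases when spliced). Another 3 begin at the downstream start (417 to 2665 bases) and 3 further down (467 to 791 bases). The windows printed above belong to the upstream transcript of 2383 bases and to the downstream start. Whether the use of any of these transcripts changed cannot be read from a gene total, and transcript values were not analysed here. Cdkn1c also passed, with a log2 difference of 0.09 (adjusted p = 0.0257), but that call was lost in 5 of the 6 fits without 1 library (adjusted p of 0.0435 to 0.0848, passing without wild-type library 3) and in the PI3K and cKO libraries (0.07, adjusted p = 0.245). Igf2 differed by 0.18 (adjusted p = 0.0656) and Plagl1 by -0.35 (adjusted p = 0.134), neither passing. The PI3K comparison had 1 of 12907 genes (0.00775%) past the threshold and the cKO comparison 1 of 11002 (0.00909%), in both cases 0 of the 10. For Mest the log2 difference was 0.00 between cKO and control, with a 95% interval of -0.09 to 0.09, and -0.04 between PI3K and wild-type, with an interval of -0.15 to 0.07.

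**Figure D4:**
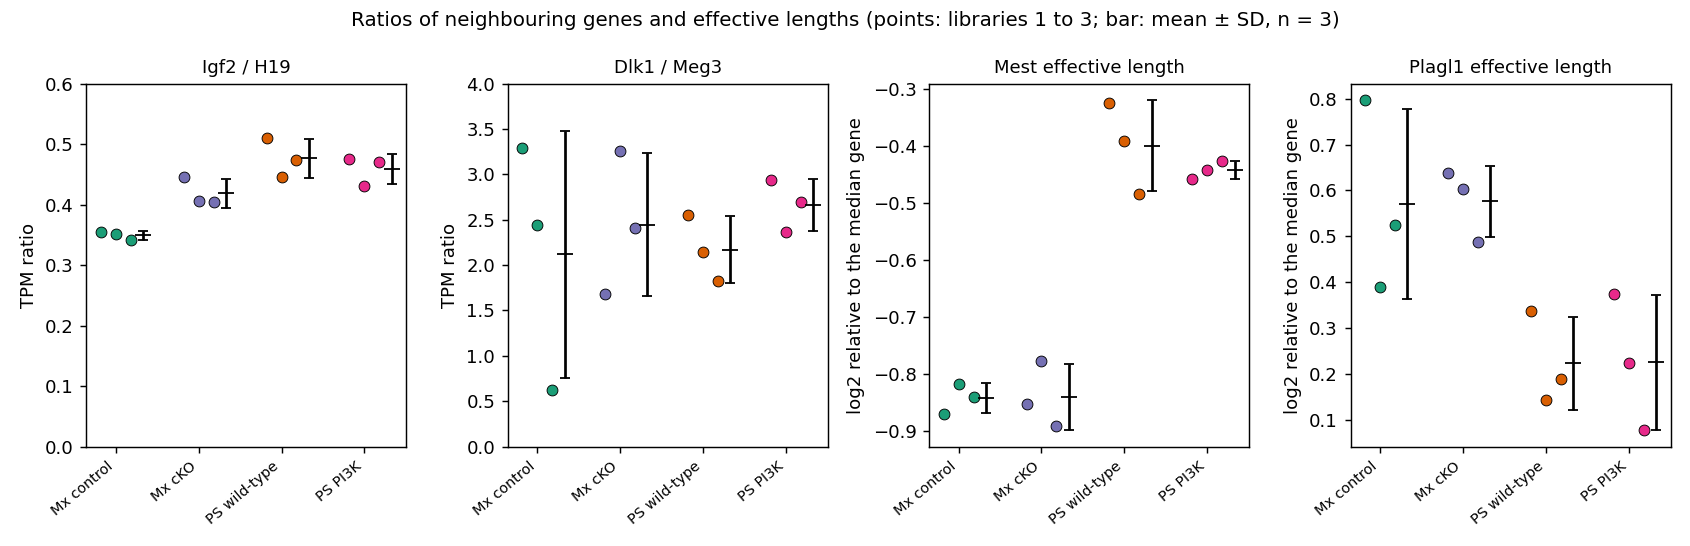
From left to right, the TPM ratios Igf2 to H19 and Dlk1 to Meg3 (axes from 0) and the effective lengths of Mest and Plagl1 (log2 relative to the median gene) in the 4 groups; points are libraries 1 to 3 and bars the mean ± SD (n = 3). The control libraries have the lowest Igf2 to H19 ratios (0.341 to 0.356), 1 control library has a Dlk1 to Meg3 ratio of 0.626, and Mest is longer in all 6 palatal than in all 6 maxillary libraries.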

How the data were processed

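The authors deposited estimated counts per gene and TPM values for 12 libraries, in tables whose names give Salmon as their source. The submitters' processing notes name STAR 2.7.0, Salmon 1.1.0, DESeq2 1.28.1 and the mm10 build, with no role or order, and strand use and the transcript index are not given in the sources used here. TPM values were scaled by the authors for transcript length and depth. The tables hold 53392 genes, of which 53355 were given a symbol from GENCODE M21, and 0 columns lacked a sample.

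Rounded estimated counts entered edgeR 4.0.16 under R 4.3.3 (quasi-likelihood test, TMM normalisation, default filter on low counts, Benjamini-Hochberg adjustment over all genes tested), each comparison on its own 6 libraries, with a threshold of 0.05. Normalised CPM used factors over all 12 libraries and TMM in each fit. Effective length was the log2 ratio of estimated count to TPM, centred on the median gene of each library, for genes with at least 50 counts in all 6 libraries, tested with limma 3.58.1. Fold changes and their counts were recomputed without each library, with a replicate block, with other scalings and filters, with DESeq2 1.42.0, and with limma on the log2 of TPM plus a pseudocount of 1 or 0.1. Effective lengths were recomputed without each library, with a replicate block and with a minimum of 20 counts, and the TPM ratios without each library and from CPM; the comparison of PI3K palatal with cKO maxillary libraries was added after the data were seen. Scripts were tested on simulated data. P-values measure the spread between these libraries alone. Depth limits precision little for these abundant genes; intervals cover 95%.

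The members and gene lists were chosen with earlier results of these data known. All 10 members are named; each list gives at most 3 rising and 3 falling genes, by size of change among those past the threshold whose 2 group means averaged 5 CPM or more, and for likeness the 3 genes with the highest correlation, of which the text prints the most similar. Igf1r, Rian, Mirg and Usp29 were looked up after the values were seen. Promoter windows and microRNAs are from RefSeq (GRCm38.p6); windows on 1 chromosome were not used.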

Additional observations from a re-analysis of the deposited data

How the results depend on the processing

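Over 15 alternatives each (16 for palatal shelf against maxillary process), the count of the 10 genes past the threshold stayed at 0 in the PI3K comparison, was 0 in the cKO comparison except under DESeq2 (2), and was 6 to 9 between tissues. The number of all genes called was 4 under DESeq2 in the PI3K comparison, and in the cKO comparison 143 with no filter, 384 under DESeq2, 7 by limma on log2(TPM + 1), 105 in a fit of all 12 libraries and 2 to 29 without 1 library. Deviations of same-numbered libraries had r of -0.22 to 0.53 in the PI3K, 0.08 to 0.23 in the cKO and -0.14 to 0.03 in the tissue comparison. With 3 pairs in each, these values cannot decide whether the numbers pair the libraries. The replicate block called 0, 40 and 6835 genes in these comparisons, against 0, 12 and 7965 in the main fits. Of the 10 genes it called 0, 0 and 8. By effective length the block called 0 genes in each comparison. Between tissues Mest then had an adjusted p of 0.121 and Cdkn1c 0.138 in limma. The share of called genes that were higher in the palatal shelf was 53.7%, but 70.9% on log2(TPM + 1) and 71.3% on log2(TPM + 0.1), where the median of all genes moved from 0.03 to 0.16 and 0.19; in the cKO comparison it was 66.7%, and 85.7% and 90% in these fits. Directions that turned were all of differences that did not pass. In the PI3K comparison Mest was 0.0374 in both TPM fits, and without 1 library the log2 fold changes ranged from -0.014 to 0.32 (Igf2), -0.010 to 0.32 (Meg3), -0.0032 to 0.55 (Cdkn1c), -0.038 to 0.13 (Plagl1) and -0.017 to 0.017 (Mest), and in the cKO comparison from -0.59 to 0.086 (Dlk1). Effective lengths called 0 to 1 genes without 1 library in the PI3K and 0 to 5 in the cKO comparison (2 with at least 20 counts), and 0 to 587 between tissues (563 with at least 20 counts). Without 1 library the effective length differences were -0.012 to 0.0096 (Igf2), -0.011 to 0.026 (Cdkn1c), -0.0012 to 0.011 (Grb10), -0.072 to 0.077 (Plagl1) and -0.019 to 0.012 (Igf2r) in the PI3K comparison, -0.067 to 0.019 (Dlk1), -0.0017 to 0.038 (Cdkn1c), -0.0028 to 0.0035 (Peg3), -0.030 to 0.026 (Mest) and -0.087 to 0.12 (Plagl1) in the cKO comparison, and -0.025 to 0.063 (Dlk1) and -0.0087 to 0.0013 (Igf2r) between tissues. With at least 20 counts Dlk1 was -0.00077 and Peg3 -3.5e-05 between tissues, and in the PI3K and cKO libraries Dlk1 was -0.0058 and Igf2r 0.0052. Except for what a setting removes, the cause was not tested. With 3 libraries a group, the intervals limit the PI3K and cKO comparisons: differences of the size of Cdkn1c in the palatal shelf were not detectable.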

Other observations

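Dio3, at the far end of the Dlk1 locus, varied within the palatal groups, at 23.5, 4.71 and 11.8 normalised CPM in the wild-type and 21.3, 4.56 and 3.87 in the PI3K libraries, against 0.119 to 0.454 in the control maxillary libraries. Airn, the noncoding RNA that runs antisense across Igf2r and is known to silence it on the paternal copy, stood at 7.10 to 11.96 normalised CPM in the wild-type palatal and 1.82, 3.52 and 3.38 in the control maxillary libraries. The groups did not overlap, and Airn rose by 1.79 on the log2 scale (adjusted p = 0.00299, edgeR quasi-likelihood test with Benjamini-Hochberg adjustment), in the comparison in which Igf2r rose by 0.74. It was looked up after the values of Igf2r were seen, and with strand use unstated its counts may include reads of Igf2r. Zim1, beside Peg3, held 20.3, 7.09 and 9.75 normalised CPM in the libraries labelled cKO against 7.07, 3.94 and 5.60 in the control, and its adjusted p was 0.362.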
